A study of Mus musculus with 8 samples.

Results

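The heavy-chain V segments described here are the genes from which a B cell picks the variable end of its antibody heavy chain. They are the 108 rows, of 26589 in the deposited table, whose gene is annotated as a functional immunoglobulin V gene in GENCODE M21 and whose symbol starts with Ighv. The annotation holds 113 such genes, and the other 5 were not analysed here. The number between Ighv and the hyphen gives the family, and the 108 segments fall into 15 families. Family 1 has 51 members, family 5 has 10, family 2 has 9, family 8 has 8, family 3 has 6 and family 6 has 5. Families 9 and 14 have 4 each, family 7 has 3, families 10 and 11 have 2 each, and families 4, 12, 13 and 15 have 1 each.

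The libraries compared 2 groups of mouse splenic B cells, 4 libraries each. The donors were IL-10-eGFP Tiger mice, whose green fluorescent protein reports transcription of the Il10 gene. The purified cells spent 48 h in culture with lipopolysaccharide (LPS) at 3 µg/ml, which activates B cells through Toll-like receptor 4, and then sorted into IL-10+ and IL-10- cells on the reporter. Both groups therefore carried the reporter and received LPS; a treatment tag that reads untreated stands against these protocols, which were followed. Age, sex, any pooling of animals and the meaning of a replicate number were not given in the sources used here. Accordingly, p-values measure the spread between these libraries, part of which may be technical.

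As background, a developing B cell joins 1 V segment to a D and a J segment of the same chromosome, and transcribes the product from the promoter of that V segment into the constant region of IgM. Each B cell thus makes nearly all its heavy-chain RNA from a single rearranged V segment, and the RNA of a segment in a population reflects both how many cells use it and how much RNA each makes. In bulk libraries these cannot be told apart. Family 1, also called J558, is the largest mouse family and lies mainly far from the constant regions, whereas families 2 and 5 lie near them. Families 11 and 12 are known from B-1a cells, innate-like B cells, many of which bind phosphatidylcholine with receptors built on these segments. Cells that secrete antibody carry far more immunoglobulin RNA than resting B cells.

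The sequences of family 11 are shown first, since its 2 members differ at few bases and yet stood far apart in RNA. A stretch of 279 bases of the V exon, bases 17 to 295 counted from 1 at its first base, is printed 5′ to 3′ on the minus strand of GRCm38 (the build also called mm10), from the GENCODE M21 transcripts, with the differing bases in capitals. The V exons were 98.7% identical, and the differences, with the base of Ighv11-1 first, are A37G, C49A, C212A and T275G.
Ighv11-1 (chr12:113981891-113982169): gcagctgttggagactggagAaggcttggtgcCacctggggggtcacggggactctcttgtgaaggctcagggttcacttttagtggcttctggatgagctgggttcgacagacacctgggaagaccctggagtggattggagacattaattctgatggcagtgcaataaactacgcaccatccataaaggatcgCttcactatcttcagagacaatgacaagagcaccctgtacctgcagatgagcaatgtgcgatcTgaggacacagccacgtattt
Ighv11-2 (chr12:114048253-114048531): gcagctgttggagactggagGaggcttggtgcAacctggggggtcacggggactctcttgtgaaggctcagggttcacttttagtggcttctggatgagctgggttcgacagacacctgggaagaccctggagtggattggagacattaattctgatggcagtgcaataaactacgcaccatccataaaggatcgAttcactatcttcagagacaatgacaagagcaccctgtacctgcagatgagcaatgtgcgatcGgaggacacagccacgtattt

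The 3′ end of a V exon, which encodes the start of the antigen-contacting loop where V meets D, separates further segments on which the results turn. Each stretch below begins 30 bases before the codon of the conserved cysteine that ends the third framework region, with that codon in capitals, and runs 5′ to 3′ on the minus strand of chromosome 12 to the end of the germline exon. The first 6 segments gained share in IL-10+ libraries, the next 4 lost share, and the last had the largest share in both groups.
Ighv11-2 (chr12:114048241-114048281): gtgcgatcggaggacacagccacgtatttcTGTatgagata
Ighv12-3 (chr12:114366521-114366564): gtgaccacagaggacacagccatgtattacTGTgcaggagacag
Ighv2-9 (chr12:113879096-113879136): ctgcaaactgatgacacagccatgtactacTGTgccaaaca
Ighv6-3 (chr12:114391712-114391749): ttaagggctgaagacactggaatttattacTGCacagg
Ighv6-6 (chr12:114434788-114434826): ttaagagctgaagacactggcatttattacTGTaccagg
Ighv8-5 (chr12:115067560-115067602): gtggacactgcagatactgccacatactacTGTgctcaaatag
Ighv15-2 (chr12:114564578-114564616): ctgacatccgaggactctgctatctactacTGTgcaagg
Ighv5-2 (chr12:113578504-113578544): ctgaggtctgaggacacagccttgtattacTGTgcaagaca
Ighv1-5 (chr12:114513330-114513368): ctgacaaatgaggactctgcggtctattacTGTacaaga
Ighv1-80 (chr12:115912344-115912382): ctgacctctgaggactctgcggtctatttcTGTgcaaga
Ighv1-26 (chr12:114788372-114788410): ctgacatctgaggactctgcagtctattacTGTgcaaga
The codon was found at this place in 104 of the 108 segments. The next 6 bases were gcaaga in 61 of these 104, atgaga in 2, both of family 11, and gcagga in 1, which is Ighv12-3. These are reference sequences, and the junctions and mutations of the sorted cells were not read.

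All 108 segments lay on the minus strand of chromosome 12, from 113578504 to 116000461 of mm10, a stretch of 2.42 Mb. Ighm, the constant region of IgM, lay beyond the near end at 113418558 to 113422730, so that a higher coordinate means a segment farther from the constant regions. Library totals were 27380398 to 29968285 reads, recovered from the deposited values (FPKM, reads scaled by gene length and by library total). Of these reads, 98455 to 130639 fell on the 108 segments in IL-10+ libraries and 19340 to 29372 in IL-10- libraries. Each IL-10+ library had reads on at least 105 of the segments and each IL-10- library on at least 103. The B cell markers Cd79a and Cd74 stood at 593 ± 62.0 and 1213 ± 188 FPKM in IL-10+ libraries, against 532 ± 79.3 and 1497 ± 337 FPKM in IL-10- libraries (SD, n = 4). The 7 T cell markers summed to at most 2.38 FPKM in any library, and those of natural killer cells, macrophages and neutrophils to at most 1.36 FPKM.

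Heavy-chain V RNA was higher in IL-10+ cells across the whole locus. The 108 segments summed to 12935, 10707, 10281 and 9549 FPKM in IL-10+ replicates 1 to 4, and to 1884, 2087, 2850 and 2411 FPKM in IL-10- replicates 1 to 4. The lowest IL-10+ library thus stood well above the highest IL-10- library, and the means were 10868 ± 1458 and 2308 ± 422 FPKM (SD, n = 4), a 4.71-fold ratio. Of the 95 segments that reached 1 FPKM in 4 or more libraries, 95 were called higher and 0 lower by limma on log2(FPKM + 1) at a Benjamini-Hochberg adjusted p under 0.05 (0 at an unadjusted p under 0.05 were lower). Over all 11329 genes tested, 10.6% were called higher and 9.18% lower. With the replicate number as a block, the 95 were again called higher, beside 20.4% of all genes tested. The groups did not overlap in 95 of these 95 segments, all higher in IL-10+, against 12.2% of all genes tested. The filter can be passed through 1 group alone. Ighv8-4, named for this, stood at 1.87 to 2.81 FPKM in IL-10+ against 0 to 0.81 in IL-10- libraries. Its gap thus follows from the filter. With no filter on low values, 93 of 108 segments were called higher and 0 lower, beside 1343 and 828 of 26589 genes. The median log2 change of the 95 was 2.02 and that of all genes tested was -0.06. The other 13 segments had a mean of at most 2.63 FPKM in either group and were not tested in the main fit.

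The rise differed between segments, from a log2 change of 0.61 for Ighv1-62-3, named as the end of the range, to 5.91 for Ighv11-2. Ighv1-62-3 stood at 2.29 against 1.17 FPKM, and the scale of FPKM + 1 understates changes of such low genes. By ratio of means the rise ran from 1.83-fold for Ighv15-2 to 78.7-fold for Ighv11-2. The rise was larger in replicates 1 and 2, with a median log2 change of 2.33 over the 95. In replicates 3 and 4 that median was 1.71, and the difference was not tested. Of the segments with a mean above 100 FPKM, 36 were found in IL-10+ libraries and 1, Ighv1-26, in IL-10- libraries. The order of the segments was largely kept: the Spearman correlation of the group means across the 108 segments, which share libraries and depth, was 0.941. Of the 10 leading segments of each group 8 were shared.

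**Figure D1:**
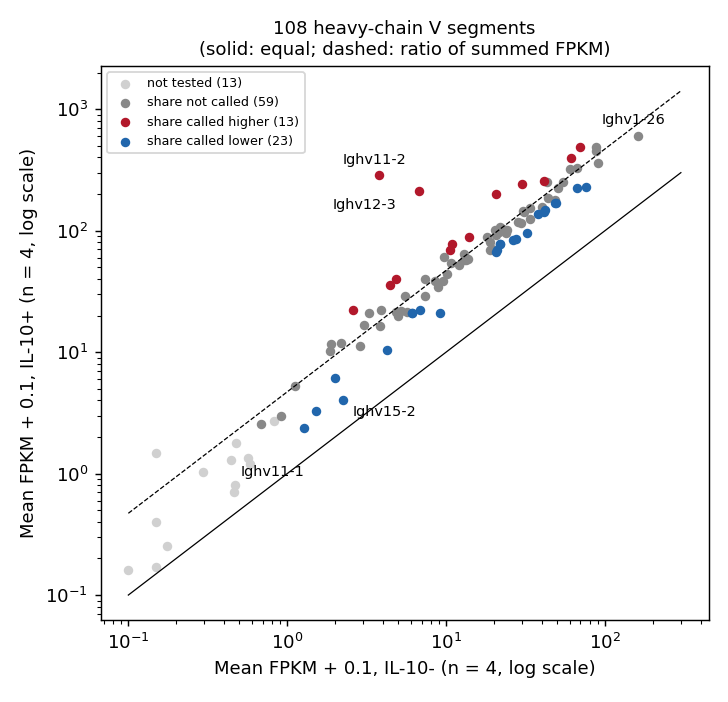
Mean FPKM plus 0.1 of each of the 108 segments in IL-10- (x axis) and IL-10+ (y axis) libraries, n = 4 each, both on log scales. The solid line marks equal values and the dashed line the 4.71-fold ratio of the sums; most segments follow the dashed line, and Ighv11-2 and Ighv12-3 stand far above it.

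The 8 leading segments that both groups shared came from families 1, 3, 6, 9 and 10. Ighv1-26, of family 1, led in both, with 675, 597, 634 and 476 FPKM in IL-10+ against 133, 149, 209 and 151 FPKM in IL-10- libraries. It took 5.48% ± 0.52 of the summed V FPKM in IL-10+ against 6.95% ± 0.48 in IL-10- libraries (SD, n = 4). Ighv6-3 stood next in IL-10+ libraries at 4.51%, ahead of Ighv9-3 at 4.44% and Ighv1-53 at 4.21%. These 3 did not differ beyond their SDs of 0.63, 0.68 and 0.52. Ighv10-1 followed at 3.68%, Ighv3-6 at 3.27%, Ighv1-64 at 2.98% and Ighv1-55 at 2.95%. The remaining places were taken by Ighv11-2 (2.62%) and Ighv14-2 (2.35%) in IL-10+ and by Ighv1-80 (3.21%) and Ighv1-82 (2.84%) in IL-10- libraries. Ighv11-2 was ninth in IL-10+ against stood at rank 81 in IL-10- libraries.

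RNA was spread over the segments to a similar degree in both groups. The effective number of segments, that is, how many equally used segments would give the same sum of squared shares, was 44.4 ± 1.53 in IL-10+ against 44.4 ± 1.65 in IL-10- libraries (SD, n = 4). The 10 leading segments of each library took 37.0% ± 0.76 and 35.6% ± 1.43, and these ranges overlapped, with IL-10+ higher in all 4 replicate numbers. Composition nevertheless separated the groups. The part of the V RNA that would have to change segment to turn one library into another was 5.36% to 10.4% between IL-10+ libraries and 4.92% to 7.66% between IL-10- libraries. Between an IL-10+ and an IL-10- library it was 10.7% to 16.2%. The smallest distance between groups thus exceeded the largest distance within a group.

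Family shares are sums over members and are given as values, without a test. Family 1 held the largest share in every library and less of it in IL-10+ cells. It took 44.9%, 46.8%, 50.4% and 45.0% of the summed V FPKM in IL-10+ replicates 1 to 4 and 54.0%, 54.8%, 56.6% and 54.5% in IL-10- replicates 1 to 4. The groups did not overlap, with means of 46.8% ± 2.57 and 55.0% ± 1.13 (SD, n = 4), a difference of -8.22 percentage points. Family 8 was also lower, at 3.34% ± 0.29 against 3.93% ± 0.14, with the groups apart by a narrow margin (highest IL-10+ library 3.78%, lowest IL-10- library 3.83%). Its difference of -0.59 points was -0.86 in replicates 1 and 2 and -0.32 in replicates 3 and 4. Family 15, a single segment with little RNA, took 0.0362% ± 0.0074 in IL-10+ against 0.0960% ± 0.0285 in IL-10- libraries.

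5 families held more of the V RNA in every IL-10+ library than in any IL-10- library. Family 6, also called J606, took 6.80%, 5.89%, 7.02% and 7.16% in IL-10+ against 3.76%, 4.48%, 4.50% and 4.46% in IL-10- libraries. Family 2, also called Q52, took 6.42%, 6.55%, 5.28% and 6.31% against 4.69%, 4.61%, 4.63% and 4.95%. In both families the lowest IL-10+ library lay above the highest IL-10- library, and the means differed by 2.42 and 1.42 points. Within family 2, Ighv2-9 alone took 1.82% against 0.88%, so much of that difference lay in 1 segment. Family 10 took 5.06% ± 0.34 against 4.13% ± 0.17 (SD, n = 4), with the groups apart. Of its 2 members, Ighv10-1 took more (3.68% against 2.64%) and Ighv10-3, named to complete the family, took less (1.39% against 1.49%). The remaining 2, families 11 and 12, changed most in relative terms and are described with their segments below.

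The groups overlapped in the other 7 families. Family 4 (0.72% against 0.47%) and family 7 (2.71% against 2.09%) were higher in IL-10+ in all 4 replicate numbers. Family 3 (4.90% against 5.90%) and family 5 (7.71% against 8.60%) were lower in each. Family 9 took 5.88% against 5.39%, family 14 took 4.94% against 4.46% and family 13 took 0.49% against 0.47%, each higher in 3 of the 4 numbers.

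**Figure D2:**
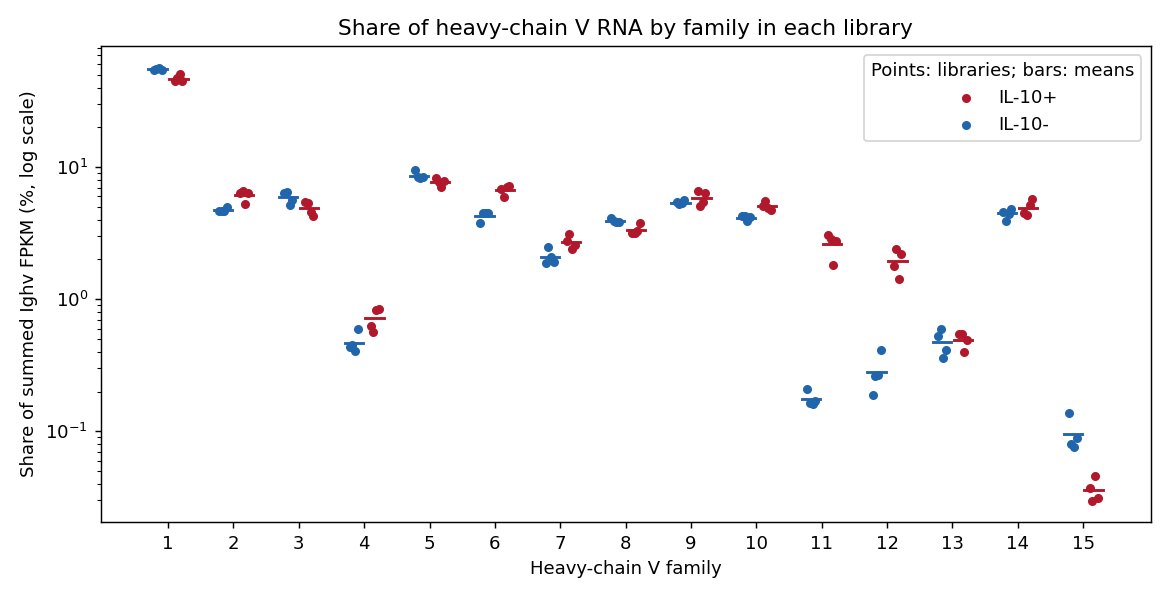
Share of the summed V FPKM taken by each of the 15 families, in percent on a log scale, with a point for each library and a bar for each group mean (n = 4). IL-10+ points lie above all IL-10- points in families 2, 6, 10, 11 and 12 and below them in families 1, 8 and 15.

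To ask of each segment whether its share differed, apart from the rise of the whole locus, every library was scaled to the same summed V FPKM and all genes were fitted again. By this scaling 13 of the 95 tested segments were called higher, 23 lower and 59 neither. Of all 11329 genes tested, 0.318% were called higher and 97.4% lower, so that adjustment over the table hardly raises a p and is lenient. For Ighv5-2, for example, the unadjusted p was 0.000772 and the adjusted p 0.00081. With the replicate number as a block, 10 were called higher and 13 lower, all of them among the first (background 0.282% and 97.6%). The count of 23 fell to 13, 14 and 15 without IL-10+ replicate 2, 3 or 4 and to 14 and 11 without IL-10- replicate 2 or 4. It was 15 in replicates 1 and 2 alone. In every alternative fit in which they were tested, 8 of the 13 and 10 of the 23 kept their call. The 13 together gained 10.1 points of share and the 23 lost 7.16 points. The scaling also spread the other genes between libraries, and the moderated SEs draw on all genes fitted. Segments with shares apart could thus go uncalled. Ighv1-63, chosen after its values were seen, took 0.196% ± 0.0085 in IL-10+ against 0.241% ± 0.0105 in IL-10- libraries (SD, n = 4). Its groups did not overlap, yet the scaled limma fit gave an adjusted p of 0.136. The 59 are therefore not shown to keep their share.

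Calls followed family only in part. In 7 families the calls were all higher, in 3 all lower, in 3 they went both ways, and families 13 and 14 had none. Families 4, 7, 10, 11, 12 and 15 had 1 call each, so that their calls could not go both ways. Family 1 had 15 segments called lower and 1 called higher of 47 tested. Family 2 had 3 called higher and 0 lower of 8 tested, and family 6 had 2 higher of 2 tested. Family 3 had 2 lower of 6 and family 5 had 2 lower of 9. In family 9, Ighv9-4 was higher while Ighv9-1 and Ighv9-2 were lower. In family 8, Ighv8-5 was higher and Ighv8-8 lower. Ighv9-1, Ighv9-4 and Ighv8-8 are named to complete these small counts, chosen after their values were seen.

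Ighv11-2 showed the largest change of the locus. It lies at chromosome 12, 114048241 to 114048812, and is annotated with 2 exons. Its values were 398, 306, 186 and 261 FPKM in IL-10+ replicates 1 to 4 and 3.41, 3.20, 4.39 and 3.62 FPKM in IL-10- replicates 1 to 4. The groups were far apart, with IL-10+ replicate 3 the lowest of its group. These values rest on 2470 to 5022 reads in IL-10+ against 42 to 57 reads in IL-10- libraries. The means differed 78.7-fold, a log2 change of 5.91 on the scale of FPKM + 1 (SE 0.21, adjusted p = 4.58e-06). Its share of the V RNA was 3.08%, 2.86%, 1.80% and 2.74% in IL-10+ against 0.181%, 0.153%, 0.154% and 0.150% in IL-10- libraries, a locus-scaled log2 change of 3.89 (SE 0.20).

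The other member of family 11, Ighv11-1 (113981879 to 113982341), differs from it at the 4 printed bases, and carried almost no RNA. It stood at 1.66, 1.22, 0.49 and 1.42 FPKM in IL-10+ against 0.51, 0.20, 0.20 and 0.47 FPKM in IL-10- libraries, on 2 to 16 reads a library. The share of family 11 therefore rested on Ighv11-2. It was 2.63% ± 0.56 in IL-10+ against 0.175% ± 0.022 in IL-10- libraries (SD, n = 4), a 15-fold ratio. Without Ighv11-2 and Ighv12-3, the difference of family 11 was -0.0043 points. The treatment of reads that match both members was not given in the sources used here.

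Ighv12-3, the only member of family 12, lies at 114366521 to 114366954 and also has 2 exons. It stood at 231, 257, 147 and 211 FPKM in IL-10+ against 3.54, 5.46, 7.65 and 9.93 FPKM in IL-10- libraries. Again no IL-10- value came near the lowest IL-10+ value. The means differed 31.8-fold (log2 change 4.84, SE 0.28, adjusted p = 2.15e-05). Its share was 1.78%, 2.40%, 1.43% and 2.21% in IL-10+ against 0.188%, 0.262%, 0.268% and 0.412% in IL-10- libraries, a 6.93-fold ratio of the means. Its nearest V exon was 78.2% identical, so that it had no close relative among the segments.

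Of the 4 segments that lie next to these, 1 was called. Ighv14-2 and Ighv14-3, the neighbours of Ighv11-2, had locus-scaled log2 changes of 0.34 (adjusted p = 0.088) and -0.01 (adjusted p = 0.961). Ighv13-2, on the near side of Ighv12-3, had 0.07 (adjusted p = 0.715). Ighv6-3, on its far side, was called higher, with a change of 0.59. Ighv14-3 is named here by its position.

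The remaining segments with a called gain in share were smaller in change and came from 8 families. Ighv2-9 of family 2 stood at 264, 214, 143 and 178 FPKM in IL-10+ against 16.4, 17.9, 25.9 and 21.5 FPKM in IL-10- libraries, a 9.78-fold ratio and a locus-scaled log2 change of 1.02 (SE 0.19, adjusted p = 1.24e-05). Ighv8-5 (8.51-fold, locus-scaled 0.87) was the largest gain in a family whose summed share was lower. Ighv6-6 took 2.50%, 2.14%, 1.91% and 2.22% of the V RNA in IL-10+ against 1.26%, 1.39%, 1.28% and 1.26% in IL-10- libraries. Ighv6-3 took 4.26%, 3.74%, 5.10% and 4.94% against 2.48%, 3.06%, 3.21% and 3.17%. In both family 6 segments every IL-10+ library exceeded every IL-10- library, and the other 3 members of the family were below the level for a test. Ighv4-1 (7.09-fold, locus-scaled 0.59) and Ighv10-1 (6.53-fold, 0.47) were also called. The call of Ighv4-1 was lost in replicates 1 and 2 alone (adjusted p = 0.092) and that of Ighv10-1 without IL-10+ replicate 2 (adjusted p = 0.066).

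Outside the rule for named segments, 2 further gains kept their call in every alternative and were chosen after their values were seen. Ighv2-6-8, a low segment of family 2, rose 8.78-fold to 22 FPKM, a locus-scaled change of 0.75. Ighv1-36, the single gain in family 1, rose 8.17-fold to 35.5 FPKM, a locus-scaled change of 0.66. The last 3 of the 13, Ighv7-3, Ighv2-3 and Ighv9-4, had locus-scaled changes of 0.40, 0.41 and 0.41, and all 3 lost the call with the replicate block (adjusted p = 0.082, 0.078 and 0.080).

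**Figure D3:**
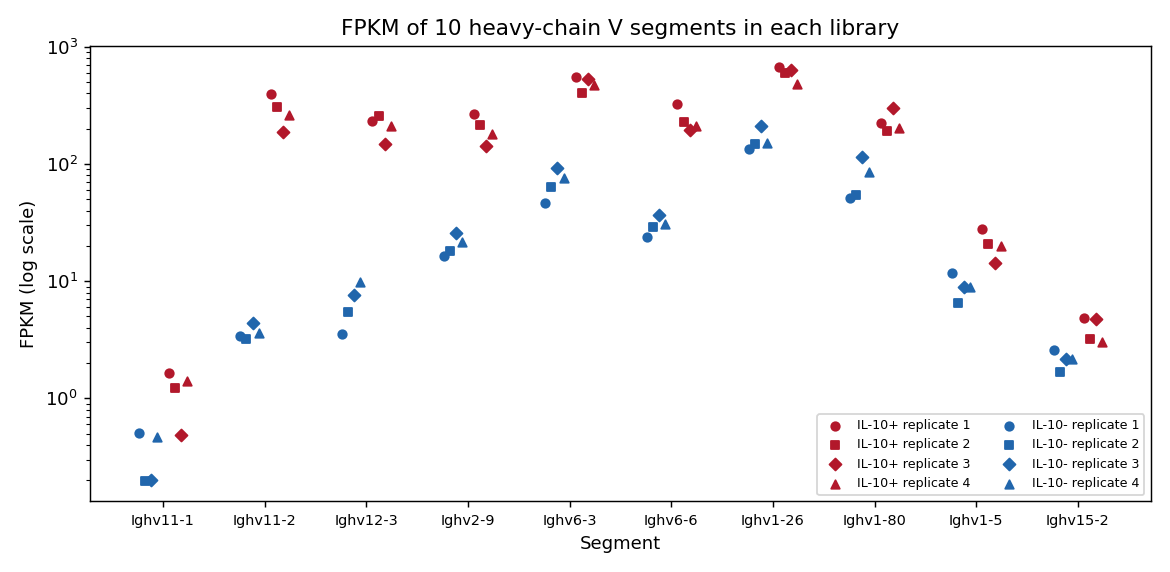
FPKM of 10 segments in each of the 8 libraries, on a log scale, with a symbol for each replicate number and a colour for each group. Ighv11-2 and Ighv12-3 lie at or below 9.93 FPKM in all IL-10- libraries and at or above 147 FPKM in all IL-10+ libraries, while Ighv1-5 and Ighv15-2 differ 2.29-fold and 1.83-fold.

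Losses of share were found among segments whose RNA was itself higher in IL-10+ cells, only less so than the rest of the locus. Ighv15-2 stood at 4.81, 3.21, 4.75 and 3.00 FPKM in IL-10+ against 2.60, 1.67, 2.19 and 2.15 FPKM in IL-10- libraries. The groups did not overlap, and the log2 change of 0.64 (SE 0.15, adjusted p = 0.019) missed the threshold when low values were kept, without IL-10+ replicate 3 or IL-10- replicate 2, and in either set of 2 replicate numbers (adjusted p = 0.054 to 0.146). Its locus-scaled change was -1.09 (SE 0.21, adjusted p = 1.94e-05), the largest relative loss of share, from 0.0960% to 0.0362% of the V RNA. Ighv1-5 stood at 27.8, 20.7, 14.4 and 19.9 FPKM against 11.8, 6.57, 8.99 and 8.87 FPKM (locus-scaled -1.0). Ighv5-2, the tested segment nearest to Ighm, stood at 10.9, 12.1, 6.67 and 11.2 FPKM against 5.36, 3.97, 4.13 and 3.21 FPKM (locus-scaled -0.86). All 3 kept the loss of share in every alternative in which they were tested, as did Ighv1-80 (-0.60) and Ighv1-81 (-0.66).

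Ighv1-80 carries the most RNA of these. It took 1.72%, 1.78%, 2.92% and 2.11% of the V RNA in IL-10+ against 2.73%, 2.60%, 3.98% and 3.51% in IL-10- libraries, so the groups overlapped while each IL-10+ library lay below the IL-10- library of its number. Ighv1-82 (-0.46), Ighv3-3 (-0.51), Ighv1-62-2 (-0.46) and Ighv9-2 (-0.43) were called lower but lost the call under several alternatives. Ighv1-37 (0.07), the remaining member of the 8 smallest rises, was not called in share. Ighv1-26 was not called either (-0.34, adjusted p = 0.070), and it passed in replicates 3 and 4 alone (adjusted p = 0.044) and with no filter on low values (adjusted p = 0.045). Among the leading members of the other families, Ighv5-17 (-0.03), Ighv9-3 (0.22), Ighv3-6 (-0.28) and Ighv8-12 (-0.24) were not called.

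Position along the locus was examined by rank, as the 36 segments nearest to Ighm, the middle 36 and the 36 farthest. The nearest 36 took 32.7%, 30.7%, 28.7% and 32.8% of the V RNA in IL-10+ against 27.6%, 26.1%, 26.1% and 27.5% in IL-10- libraries. The farthest 36 took 29.5%, 30.6%, 34% and 31.4% against 34.6%, 35.3%, 37.8% and 37.3%. The groups did not overlap in either set, with differences of 4.41 and -4.83 points, whereas the middle 36 took 37.4% ± 1.23 and 37.0% ± 1.56 (SD, n = 4). With the share of Ighv12-3 left out, the other 35 middle segments took 35.4% ± 1.26 against 36.7% ± 1.63, so that the sign turned, and the groups overlapped. The gain of the nearest set rested in large part on 1 segment: with the share of Ighv11-2 left out, the other 35 took 28.6% ± 1.49 against 26.6% ± 0.84; the groups overlapped, and the IL-10+ library was higher in all 4 replicate numbers. With only segments under 97% identical to every other, which leaves out Ighv11-2, the difference was 1.14 points for the nearest set and 3.42 for the middle set.

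Share calls by position were 6 higher and 6 lower of 33 tested in the nearest set, 6 higher and 5 lower of 31 in the middle set, and 1 higher and 12 lower of 31 in the farthest set. Family and position are bound together, since the farthest 36 hold 29 segments of family 1 and 7 of family 8 and no other family, and the nearest 36 hold none of family 1. Family 1 spans the middle and the farthest set. Its 22 middle segments took 18.6% ± 1.05 in IL-10+ against 22.6% ± 1.11 in IL-10- libraries, and the groups did not overlap. Its 29 farthest segments took 28.2% ± 1.87 against 32.4% ± 1.64, with overlap between the groups but lower in IL-10+ in all 4 numbers. In the middle set the 14 segments of other families took 18.8% ± 0.81 against 14.4% ± 0.78 (SD, n = 4), with the groups apart. So within the middle set family 1 was lower and the other families together were higher. Of 11 tested segments of these other families, 5 were called higher in share and 1 lower. The gain rested on Ighv12-3 (1.96% against 0.28%), Ighv6-3 (4.51% against 2.98%), Ighv10-1 (3.68% against 2.64%) and Ighv6-6 (2.19% against 1.30%). The rest went both ways, with Ighv3-6 at 3.27% against 3.96%. Across the 95 tested segments the Spearman correlation of the locus-scaled change with distance from Ighm was -0.319, and with the IL-10- level it was -0.104. These describe segments of the same libraries, many of them similar in sequence.

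**Figure D4:**
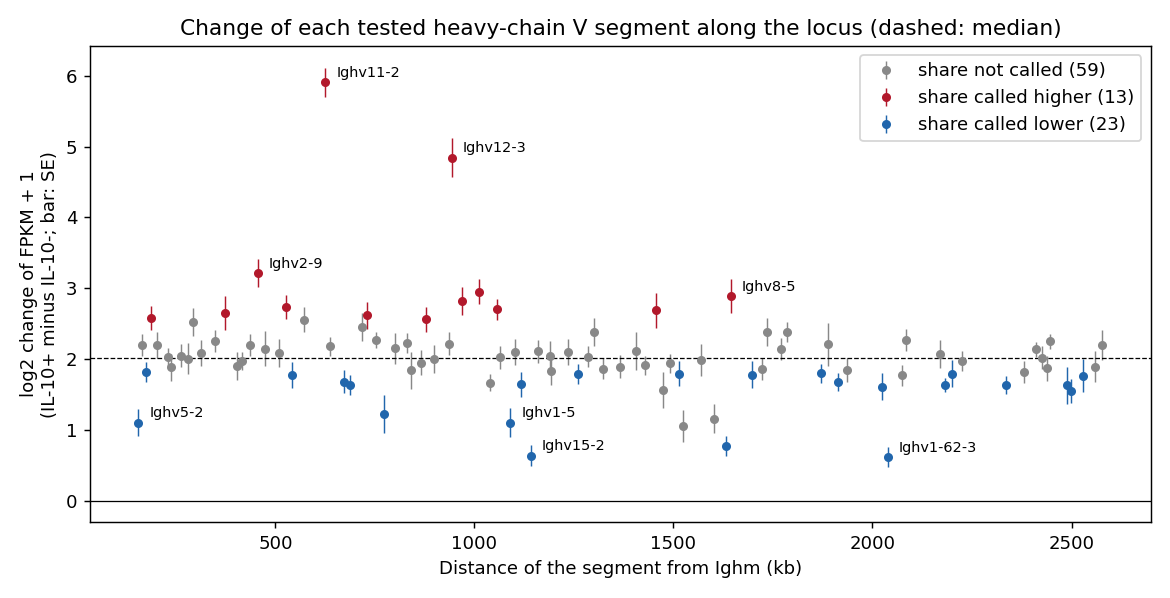
Log2 change of FPKM + 1 (IL-10+ minus IL-10-, bars show the SE) for the 95 tested segments against their distance from Ighm in kb, coloured by the call on share. All points lie above 0, the dashed line marks the median of 2.02, and the called losses crowd at the far end, where 12 of 31 were called lower.

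Similarity between segments limits how finely the counts can be read. For 27 of the 108 segments the nearest other V exon was at least 97% identical, and all 104 segments in families of at least 2 members had their nearest relative in their own family. Median identity within a family was 85.2% in family 1, 91.0% in family 2 and 95.9% in family 14, against medians of 61.9% to 69.1% to other families. Ighv1-62-2 and Ighv1-71 had identical V exons, yet Ighv1-62-2 stood at 22.2 ± 2.31 and Ighv1-71 at 1.24 ± 0.51 FPKM in IL-10+ libraries (SD, n = 4). The median level in IL-10+ libraries was 77.0 FPKM over the 27 close relatives and 58.5 FPKM over the other 81. Ighv1-71 is named for its sequence.

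Other genes of heavy-chain expression were read from lists chosen with earlier results of these data known. Of the 7 tested constant regions 2 were called higher and 1 lower, and with the block 2 higher and 3 lower. Over all genes tested 10.6% were called higher and 9.18% lower, and with the block 20.4% and 33.3%, so that 3 of 7 lower with the block is near the background. Ighm, the constant region of IgM, was 3.74-fold higher, at 10992 ± 1797 against 2940 ± 328 FPKM (SD, n = 4). Ighg3 was 1.61-fold higher and Ighd, of IgD on resting B cells, was 5.34-fold lower. Summed V FPKM over Ighm FPKM was 0.962, 0.964, 1.02 and 1.03 in IL-10+ against 0.697, 0.752, 0.833 and 0.843 in IL-10- libraries. V RNA was thus higher relative to Ighm in every IL-10+ library than in any IL-10- library. All 4 joining segments, Ighj1 to Ighj4, were called higher, Ighj4 at 1547 ± 261 against 572 ± 75.0 FPKM and Ighj3 at 738 ± 82.0 against 253 ± 30.7 FPKM.

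Of 16 tested genes that regulate immunoglobulin transcription or RNA processing, 7 were called higher and 3 lower (9 and 5 with the block, of which the 5 lower are near the background). Prdm1, the plasma cell regulator Blimp-1, was 7.42-fold higher, Xbp1, a secretory regulator, 4.07-fold and Ell2, an elongation factor of the secreted heavy-chain form, 3.79-fold. Irf4, which acts upstream of Prdm1, was 2.44-fold higher. The 3 that were lower, named to complete the count, were Spib (2.22-fold), Pax5 (1.73-fold) and Ikzf1 (1.24-fold), regulators of B cell identity. Pou2af1, the octamer coactivator OCA-B that acts at V promoters, was 2.02-fold higher at 680 ± 42.3 against 338 ± 28.7 FPKM (SD, n = 4) and was chosen after its values were seen. Of 12 tested genes of V(D)J recombination and locus folding 1, Lig4, was called higher and 1, Yy1, lower (4 and 4 with the block), near the background in each direction. Rag1 stood at 0.0027 and 0.0040 FPKM in IL-10+ and IL-10- libraries. Dntt, which adds bases at junctions, was listed at 0 in all 4 IL-10+ libraries and at 0.050, 0, 0.017 and 0.016 FPKM in IL-10- replicates 1 to 4. Both genes were near the floor in both groups and were not tested.

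Markers of B cell subsets differed between the groups, not all in the direction of the V segments. Over all genes tested 10.6% were called higher and 9.18% lower, and with the replicate block 20.4% and 33.3%. All 9 tested plasmablast markers of 10 were called higher and summed to 1513 to 1568 FPKM in IL-10+ against 346 to 491 FPKM in IL-10- libraries. Of the 9 tested B-1 markers of 10, 5 were called higher and 3 lower, and the list summed to 239 to 266 against 231 to 259 FPKM. Among them Cd9 (4.97-fold), Ctla4 (5.61-fold), Spn, the surface protein CD43 (2.97-fold), and Bhlhe41 (2.18-fold) were higher. The 3 that were lower, named to complete the count, were Zcwpw1 (1.91-fold), Vim (1.55-fold) and Fcrl5 (1.29-fold), and Zbtb32 was not called (124 ± 20.3 against 133 ± 20.9 FPKM). Cd5, which defines B-1a cells, stood at 0.26 ± 0.06 and 0.20 ± 0.08 FPKM (SD, n = 4) and was not tested. Of 8 marginal zone markers 3 were higher and 2 lower (121 to 144 against 126 to 159 FPKM). Of 6 follicular markers 0 were higher and 5 lower (108 to 186 against 271 to 520 FPKM), with Fcer2a, the receptor CD23, 6.78-fold lower. With the block the counts of these subset lists were the same, except that 6 follicular markers were lower. The 3 lower B-1 markers of 9 and the 2 lower marginal zone markers of 8 did not stand above the background of the block. Of 4 erythroid markers the 1 tested, Hbb-bt, was lower (0.70 against 2.12 FPKM). The part of these subsets in the shares of Ighv11-2, Ighv12-3 or any family was not tested.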

How the data were processed

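The measurements are FPKM values that the authors computed and deposited for 8 libraries. The submitters' processing notes name HISAT2 2.1.0, HTSeq 0.6.0 and mm10; annotation release, strand and treatment of shared reads were not given in the sources used here. Gene biotypes, positions and sequences came from GENCODE M21, which holds 26517 of the 26589 identifiers. Multiplied by gene length and a library total, 93.45% to 93.6% of values above 0, and 100.0% of the segments' values, were whole reads within 0.05.

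Groups came from the titles. The main test was limma 3.58.1 (R 4.3.3) with a variance trend on log2(FPKM + 1), two-sided, for genes that reached 1 FPKM in 4 or more libraries, with Benjamini-Hochberg adjustment over 11329 genes. This scale understates changes of low genes. A fold is the ratio of mean FPKM. The same fit was repeated with each library scaled to equal summed V FPKM. Sums and shares got no test. V exons were aligned globally with Biopython 1.88. On simulated data over 11329 genes the IL-10+ against IL-10- fit called 46.3% of 67 genes changed by a log2 of 0.5, 82.1% of 67 changed by 1 and 93.9% of 66 changed by 2, with 4 false calls.

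Libraries of the same number deviated together from their group means (r across genes 0.71, 0.58, 0.62 and 0.70, each best with its own), so the numbers were taken to pair the samples, from the data and not the labels; across the V segments alone the correlations were 0.39, 0.46, 0.54 and 0.11. Named segments were the 10 with the largest share in each group, the highest of each family, the 8 largest and 8 smallest changes among tested segments that averaged 5 FPKM or more in either group, and Ighv11-2 and Ighv12-3. In other lists all constant regions could be named and up to 4 called genes. Members, lists and rules were chosen with earlier results of these data known. Alternatives were pseudocount, filter, scaling, replicate block, left-out libraries and segment sets. Recombination signals and V promoters were not analysed here. Some items that the lists hold are not reported here.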

Additional observations from a re-analysis of the deposited data

Results flagged for a closer look

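Of 102 groups of 4 libraries screened, 2 held a library far from the other 3; by chance about 1 in 20 such groups does. Both were IL-10- replicate 1. Family 5 took 9.46% of the V RNA in that library and 8.22% to 8.37% in the other IL-10- libraries. Family 6 took 3.76% there and 4.46% to 4.50% in the others. Without this library the difference of family 5 was -0.60 points in place of -0.89, and that of family 6 was 2.24 in place of 2.42.

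The 39 rows annotated as V pseudogenes of the heavy-chain locus, which enter no comparison above, also carried RNA. They summed to 43.7, 37.1, 30.8 and 36.6 FPKM in IL-10+ replicates 1 to 4 (mean 37.1) and to 12.2, 9.34, 13.2 and 9.87 FPKM in IL-10- replicates 1 to 4. Every IL-10+ library exceeded every IL-10- library, and the means differed 3.32-fold. In 13 of the 39 rows the groups did not overlap, all higher in IL-10+. Of all genes tested, 12.2% were apart and higher. Those genes had passed the filter on low values, which was not applied to the 39 rows, so the sets are unlike.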

How the results depend on the processing

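The 95 calls of higher RNA became 94 or 95 with 1 library left out, 93 in replicates 1 and 2 alone, 88 in replicates 3 and 4 alone and 95 with the replicate block; scaling by median of ratios or without immunoglobulin and mitochondrial genes, also combined with the block (added after seeing the data), left 95. With 1 library left out, the share calls were 9 to 14 higher and 11 to 21 lower; the lower ones were 13 with the replicate block, 15 in replicates 1 and 2, and 30 with no filter on low values. The block changed no call of higher RNA, and with no filter on low values 93 of 108 segments were called higher. With only segments under 97% identical to every other, the differences were -5.56 points for family 1, -1.53 for family 5, 3.10 for family 6, -0.947 for family 8, 2.24 for family 12, -0.0843 for family 15, 1.14 for the nearest 36 and 3.42 for the middle 36 segments, and -2.02 in effective number of segments. The summed V FPKM then differed by 6408, against 9836 in replicates 1 and 2 and 7285 in replicates 3 and 4. Without Ighv11-2 and Ighv12-3, family 1 differed by -6.23 points, the 10 leading segments by 2.55 and family 11 reversed to -0.00434. Family 8 differed by -0.862 in replicates 1 and 2 and by -0.317 in replicates 3 and 4. With reads in place of FPKM, family 11 differed by 3.07 points and the ratio to Ighm by 0.0420, on another scale since lengths differ. The cause was not tested, except that these alternatives drop the named segments or libraries. Depth limits the 13 untested segments, and the p-values rest on 4 libraries a group.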
